A study of Mus musculus with 8 samples.

Results

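The genes described here encode components of T cell receptor (TCR) signaling: the CD3 and ζ chains and the coreceptors, the tyrosine kinases and their control, adaptors and exchange factors, the lipid and calcium arm, the NF-κB arm and negative regulators. They were listed by name, and each was read from the brightest of its probes on the arrays, which carried 29924 gene names. All 43 listed genes were on the arrays. Of these, 42 lay well above the local background on most spots of the 2 arrays of 1 or more cell types, and all 42 did so on all 8 arrays. Pag1, a membrane adaptor that recruits the kinase CSK, did not pass and read 20 to 74.1 RU. The tests ran over all 15764 genes that passed this filter.

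The data came from 8 one-color arrays of CD4 T cells of peripheral lymph nodes (pLN), with 1 array for each of 4 cell types at d12 and at d25 post immunization (p.i.) with the protein KLH in the adjuvant alum. All mice, including the source of the naïve cells, were immunized and carried the reporter allele of strain B6.Cg-Foxp3<tm1Mal>, in which GFP marks Foxp3+ cells. The sorted cells were B220-CD4+ and comprised naïve CD4 T cells (GFP-, PD1 and GL7 low), follicular T helper (TFH) cells (GFP-, PD1 high, GL7+), regulatory T (Treg) cells (GFP+, PD1 and GL7 low) and follicular regulatory T (TFR) cells (GFP+, PD1 high, GL7+/-). Each array held 25 ng RNA of a pool of 8 to 15 male and female mice of 8 to 14 weeks, so a cell type at 1 day was a single pool and the gate of TFR cells, unlike that of TFH cells, did not select on GL7. For each cell type the array of d12 and that of d25 served as 2 replicates in a linear model with cell type and day (limma). The p-values set the mean difference over both days against the spread left after these terms. That spread holds noise and any change of the cell type differences between the 2 days.

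TCR signaling starts when the kinase LCK phosphorylates the CD3 and ζ chains and ZAP70 binds there and phosphorylates the adaptors LAT and SLP-76. These adaptors assemble the TEC family kinases, phospholipase C-γ1, VAV1 and phosphatidylinositol 3-kinase, from which calcium, Ras and NF-κB signals follow. Phosphatases, ubiquitin ligases and diacylglycerol kinases damp the signal, and TFH cells are known to depend on its strength and duration. Levels below are in relative units (RU) after quantile normalization and scaling of the 75th percentile to 1500, and differences are log2 differences of means over both days. Calls required an adjusted p below 0.05 (Benjamini-Hochberg, over all genes tested). In pools of sorted cells, fewer expressing cells and less RNA per cell cannot be told apart.

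The arrays carried the defining markers of their labels. Foxp3 read 37464 to 49591 RU on the Treg and TFR arrays and 65.2 to 356 RU on the others, and Cxcr5, the follicular homing receptor, read 35504 to 240836 RU in follicular cells against 1399.6 to 4394 RU in the others. The TFH d25 array stood apart by its B cell markers: 11 of 12 lay well above background, against 5 to 9 on the other arrays, and their summed level was 17905 RU against 6125 to 10389 RU. Their part in the results was not tested, although Pax5, which defines B cells, was not above background on any array. Proliferation markers summed to 77566 and 89768 RU on the TFR arrays against 27826 to 44214 RU on the others. The 7 markers of CD8 T and NK cells summed to 15565 and 14919 RU on the naïve arrays against 4657 to 10596 RU on the others, with 5 or 6 of them well above background on each array. Klrd1 read 5480 and 5859 RU on the naïve arrays and 346 to 1097 RU elsewhere. Klrb1c went the other way, with 161 and 95.8 RU on the naïve arrays, 1484 and 3084 RU on the TFH arrays and 819 and 750 RU on the TFR arrays. Cd8a, Cd8b1, Gzma and Eomes were well above background on all 8 arrays, whereas Ncr1, which defines NK cells, was not above background on any array. The part of these markers in the falls from naïve to TFH cells was not tested. The d12 arrays shared 1 slide, the d25 naïve and TFH arrays a second and the d25 Treg and TFR arrays the third, so TFH against naïve and TFR against Treg cells were always compared on 1 slide, whereas TFR against TFH cells shared a slide only at d12.

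TCR signaling genes differed in both directions between follicular and non-follicular cells. In TFH against naïve CD4 T cells, 23 of the 42 members were called, 15 higher and 8 lower, or 54.8% against a background of 46.5% of all genes tested, of which 20.9% were higher and 25.6% lower. In TFR against Treg cells, 24 were called, 8 higher and 16 lower, which is 57.1% against 39.6% (18.7% higher and 20.9% lower). TFR against TFH cells gave 18 calls, 2 higher and 16 lower, or 42.9% against 22.1%, and of all genes 11.7% were called higher and 10.5% lower there. Treg against naïve cells gave 8 calls, 4 in each direction, or 19.0% against 9.86% (5.89% higher and 3.98% lower). The sizes were ordinary for the arrays: the median absolute difference of the members was 0.44 in TFH against naïve cells and 0.41 in TFR against Treg cells, and 0.44 and 0.38 over all genes. Differences of at least 1 were called for 9 members in TFH against naïve cells (21.4%, background 20.8%) and for 7 in TFR against Treg cells (16.7%, background 16.1%), and all of these 7 were lower (background of lower calls 5.99%). Without the naïve d25 array 15 members (35.7%, background in that fit 29.4%) were called in TFH against naïve cells. In TFR against Treg cells 11 (26.2%) were called without the Treg d12 array (background 16.9%) or without the TFR d12 array (background 15.9%). Without the Treg d25 array 8 (19.0%) were called against 17.9% of all genes, and without the TFR d25 array 7 (16.7%) against 15.9%, so the members were then near the background.

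The 2 follicular comparisons share no array. Of the members, 15 were called in both, all in the same direction, 7 higher and 8 lower. Over all genes 4527 were called in both and 96.8% of them had the same direction, so the shared direction of the members is near the background. The 8 that fell in both were Cd247, Txk, Tec, Grap2, Nck1, Pik3cd, Pik3r1 and Dgka. The 7 that rose in both were Cd3d, Fyn, Zap70, Lcp2, Malt1, Ubash3b and Dok1.

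**Figure D1:**
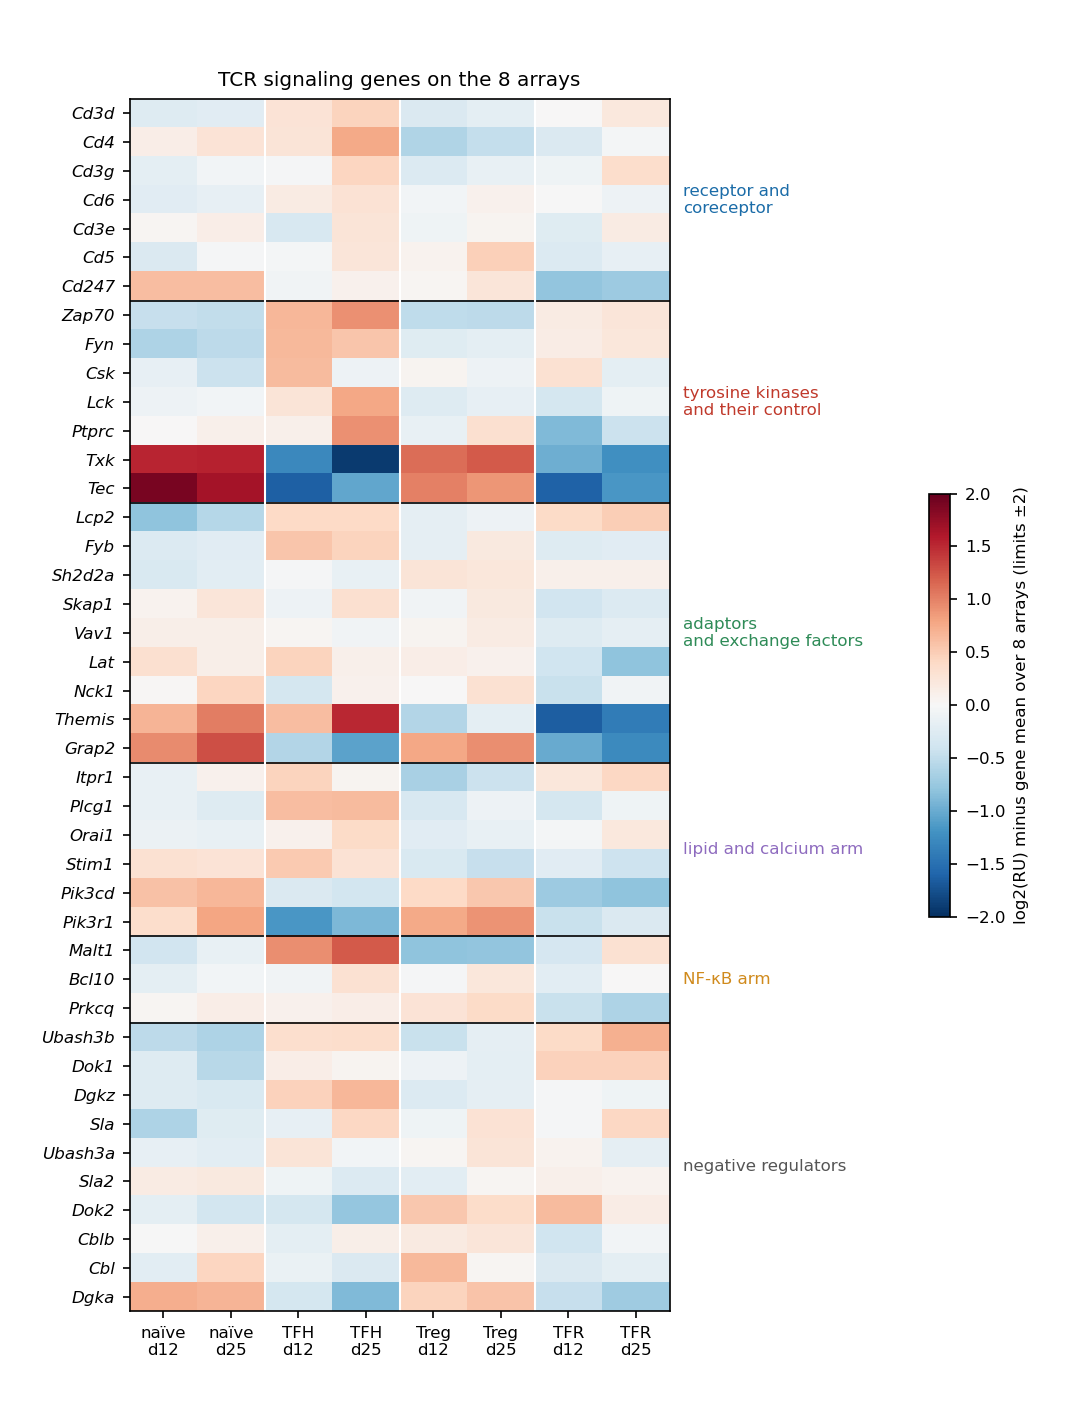
Level of the 42 members on the 8 arrays, as log2(RU) minus the mean of the gene over all arrays, with genes as rows grouped by role and arrays as columns ordered by cell type and day. Txk and Tec are high on the naïve and Treg arrays and low on the TFH and TFR arrays, and Themis is low on both TFR arrays.

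Of the receptor and coreceptor genes, the CD3 and ζ chains that carry the signaling motifs of the receptor did not move together after quantile normalization. Cd3e gave 144170.4 and 152871 RU on the naïve arrays, 112099 and 166257 RU on the TFH arrays, 131444 and 145402 RU on the Treg arrays and 118129 and 156841 RU on the TFR arrays. The arrays of all 4 cell types overlapped, and Cd3e was not called in any comparison of the main fit, with -0.12 ± 0.15 in TFH against naïve and -0.02 ± 0.15 in TFR against Treg cells. Across the 19 alternatives its value in TFH against naïve cells reached -0.50 at the lowest, and 1 of them called it lower. Cd3d gave 264639.9 and 272493 RU on the naïve arrays, 385290.5 and 433788 RU on the TFH arrays, 260697 and 277898 RU on the Treg arrays and 319796 and 369115 RU on the TFR arrays. Both TFH arrays lay above both naïve arrays, and both TFR arrays above both Treg arrays. The difference was 0.61 ± 0.09 (SE, adjusted p = 0.0055) in TFH and 0.35 ± 0.09 (SE, adjusted p = 0.0323) in TFR cells, but scaling by the 75th percentile in place of quantile normalization turned the first to -0.18 and reduced the second to 0.06.

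Cd3g gave 146263 and 159827 RU on the naïve arrays, 163399.9 and 225217 RU on the TFH arrays, 138082 and 149783 RU on the Treg arrays and 157577 and 213924 RU on the TFR arrays, which was not called (0.33 ± 0.13 (SE, adjusted p = 0.0978) in TFH and 0.35 ± 0.13 (SE, adjusted p = 0.0894) in TFR cells) and turned to -0.15 in TFH cells under the same scaling. After quantile normalization the ζ chain gene Cd247 went the other way. Cd247 gave 11515 and 11497 RU on the naïve arrays, 7147 and 8006 RU on the TFH arrays, 7743 and 8902 RU on the Treg arrays and 4350.1 and 4574 RU on the TFR arrays. TFR cells were lowest and naïve cells highest, and no array of 1 of these types overlapped the other. Cd247 fell in TFH cells (-0.61 ± 0.09 (SE, adjusted p = 0.00645)) and in TFR cells (-0.90 ± 0.09 (SE, adjusted p = 0.00319)), and it was lower in TFR than in TFH cells (-0.76 ± 0.09 (SE, adjusted p = 0.00738)). A dimmer second probe of Cd247 fell in both follicular types as well (-1.21 and -0.72) but did not separate TFR from TFH cells (0.12).

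Cd3g, Cd3d and Cd3e lie next to each other on chromosome 9, Cd3g and Cd3d with their starts facing, so that their promoters can be read side by side. The 250 bases before the start that RefSeq lists (GRCm38.p6) are given for Cd3g (chr9:44980432-44980681, minus strand), Cd3d (chr9:44981536-44981785, plus strand) and Cd3e (chr9:45009612-45009861, minus strand), 5′ to 3′ on the strand of the gene. Capitals mark the ETS letters GGAAGT or, on the other strand, ACTTCC. The shorter core GGAA alone is not marked.
Cd3g: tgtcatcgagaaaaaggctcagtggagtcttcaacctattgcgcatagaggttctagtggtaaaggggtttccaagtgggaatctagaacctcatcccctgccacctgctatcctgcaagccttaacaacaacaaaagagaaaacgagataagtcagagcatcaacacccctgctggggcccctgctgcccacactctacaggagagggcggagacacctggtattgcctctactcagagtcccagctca
Cd3d: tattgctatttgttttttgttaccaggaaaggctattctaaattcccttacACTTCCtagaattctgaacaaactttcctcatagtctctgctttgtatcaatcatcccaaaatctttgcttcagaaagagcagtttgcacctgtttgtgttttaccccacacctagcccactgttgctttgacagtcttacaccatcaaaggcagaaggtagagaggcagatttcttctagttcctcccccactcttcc
Cd3e: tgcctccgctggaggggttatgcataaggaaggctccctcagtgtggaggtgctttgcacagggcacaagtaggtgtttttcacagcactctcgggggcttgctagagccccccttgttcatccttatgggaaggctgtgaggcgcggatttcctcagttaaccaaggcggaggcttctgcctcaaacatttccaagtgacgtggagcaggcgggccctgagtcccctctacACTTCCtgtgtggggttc
The marked letters occur once in the windows of Cd3d and Cd3e and not in that of Cd3g, which does hold GGAA. Of the 33 members whose promoter was listed, 10 held the marked letters, or 30.3%, against 19.7% of all 32851 promoters of that length. The RUNX letters TGTGGT (either strand) occurred in 2 members, or 6.06%, against 14.0% of all. These are matches of letters only.

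Cd4 encodes the coreceptor that brings LCK to the receptor. It gave 69178 and 75795 RU on the naïve arrays, 75045 and 105939.8 RU on the TFH arrays, 41404 and 45035 RU on the Treg arrays and 51604 and 61278 RU on the TFR arrays. Both Treg arrays were below all naïve and TFH arrays, with -0.75 ± 0.12 (SE, adjusted p = 0.0282) in Treg against naïve and -0.67 ± 0.12 (SE, adjusted p = 0.0234) in TFR against TFH cells, whereas neither follicular comparison was called (0.30 ± 0.12 and 0.38 ± 0.12). Cd5 and Cd6 are adjacent genes of related scavenger receptor proteins that restrain TCR signals. Cd5 gave 88623 and 106275 RU on the naïve arrays, 105051 and 128128 RU on the TFH arrays, 113298 and 150526 RU on the Treg arrays and 89459 and 97030.0 RU on the TFR arrays. It was lower in TFR than in Treg cells (-0.49 ± 0.10 (SE, adjusted p = 0.0202)) and not called in TFH cells (0.26 ± 0.10 (SE, adjusted p = 0.0958)). Cd6 rose in TFH cells by 0.42 ± 0.10 (SE, adjusted p = 0.023) and gave -0.07 ± 0.10 in TFR cells, and its second, dimmer probe gave -0.02 and -0.49.

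The genes of tyrosine kinases and their control, which include the phosphatase gene Ptprc, held the largest changes of the list. Of these, 6 of 7 were called in TFH (85.7%, background 46.5%) and 5 of 7 in TFR cells (71.4%, background 39.6%). Txk and Tec encode TEC family kinases, which phosphorylate phospholipase C-γ1, and lie next to each other on chromosome 5. Txk gave 11622 and 11799 RU on the naïve arrays, 1658 and 1079 RU on the TFH arrays, 8854 and 9483 RU on the Treg arrays and 2063 and 1738 RU on the TFR arrays. Tec gave 3702 and 3136 RU on the naïve arrays, 321 and 482 RU on the TFH arrays, 1999 and 1822 RU on the Treg arrays and 325 and 442 RU on the TFR arrays. On every follicular array both genes were far below every naïve and Treg array. Txk was 8.75-fold lower in TFH than in naïve cells (-3.13 ± 0.20 (SE, adjusted p = 0.000503)) and 4.84-fold lower in TFR than in Treg cells (-2.27 ± 0.20 (SE, adjusted p = 0.00208)). Tec was 8.67-fold lower (-3.12 ± 0.24 (SE, adjusted p = 0.00087)) and 5.04-fold lower (-2.33 ± 0.24 (SE, adjusted p = 0.00319)), and its second probe gave -3.35 and -2.54. The TFR change minus the TFH change was 0.86 ± 0.28 (SE, adjusted p = 0.142) for Txk and 0.78 ± 0.34 (SE, adjusted p = 0.24) for Tec and was not called, with 95% intervals from 0.14 to 1.57 and from -0.10 to 1.66.

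**Figure D2:**
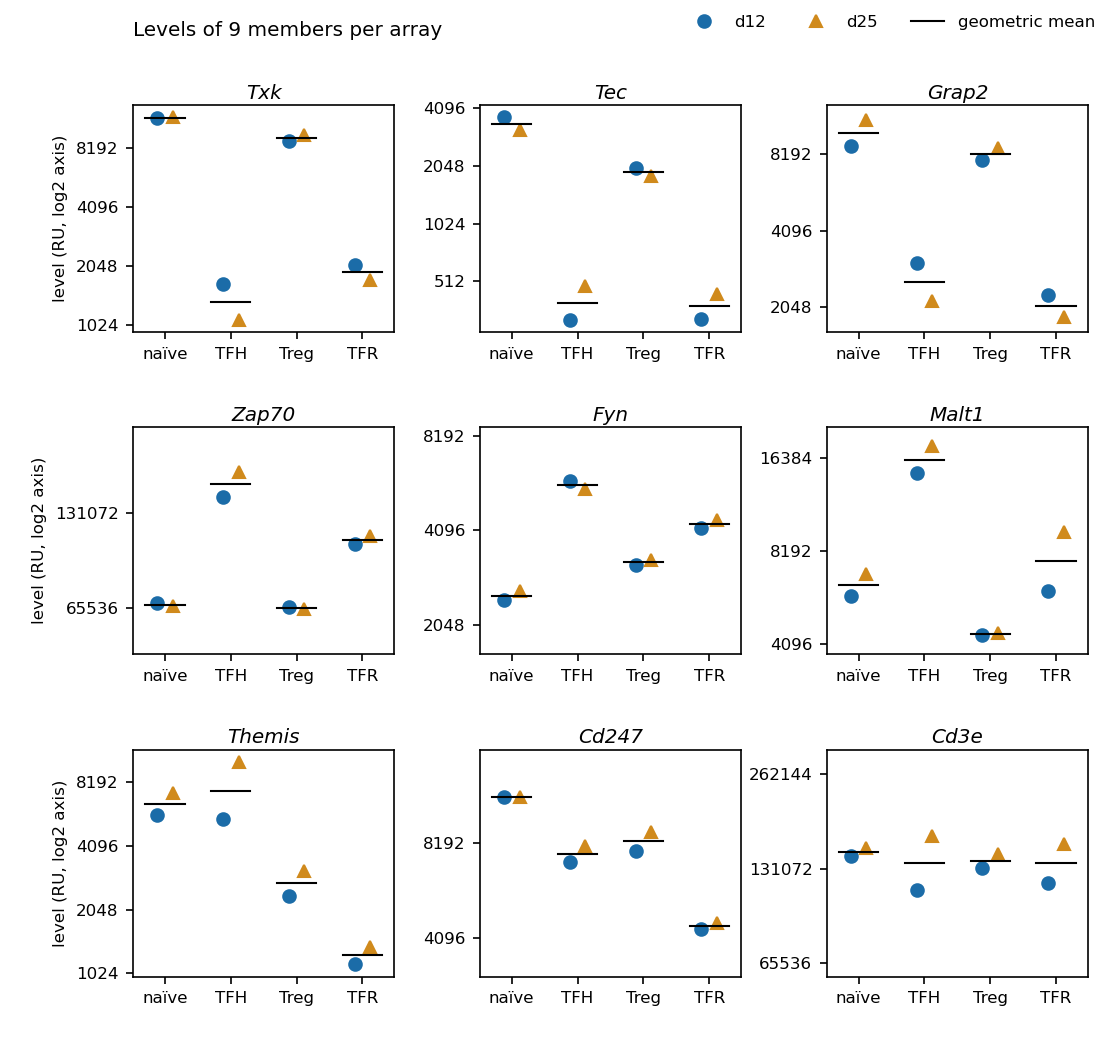
Levels in RU (log2 axes that differ between panels) of 9 members on the d12 (circles) and d25 (triangles) arrays of each cell type, with lines at the geometric mean of both. Txk, Tec and Grap2 are low in TFH and TFR cells, Zap70, Fyn and Malt1 are highest in TFH cells, Themis and Cd247 are lowest in TFR cells and the Cd3e arrays overlap.

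The promoters of the 2 TEC family genes that fell together are printed with those of Grap2, which fell with them, and Zap70, which rose. The windows are chr5:72752778-72753027, minus strand, for Txk, chr5:72868449-72868698, minus strand, for Tec, chr15:80623233-80623482, plus strand, for Grap2 and chr1:36761548-36761797, plus strand, for Zap70 (GRCm38.p6, the first start RefSeq lists, ETS letters GGAAGT in capitals).
Txk: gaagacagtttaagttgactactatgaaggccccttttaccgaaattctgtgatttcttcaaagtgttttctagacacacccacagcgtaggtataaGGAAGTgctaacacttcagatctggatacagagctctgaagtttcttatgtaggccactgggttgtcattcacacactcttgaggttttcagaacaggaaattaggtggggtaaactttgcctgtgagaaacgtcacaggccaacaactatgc
Tec: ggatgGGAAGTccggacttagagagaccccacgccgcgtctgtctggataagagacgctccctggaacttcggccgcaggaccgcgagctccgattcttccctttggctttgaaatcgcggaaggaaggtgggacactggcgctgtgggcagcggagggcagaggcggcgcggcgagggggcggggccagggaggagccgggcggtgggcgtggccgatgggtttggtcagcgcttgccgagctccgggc
Grap2: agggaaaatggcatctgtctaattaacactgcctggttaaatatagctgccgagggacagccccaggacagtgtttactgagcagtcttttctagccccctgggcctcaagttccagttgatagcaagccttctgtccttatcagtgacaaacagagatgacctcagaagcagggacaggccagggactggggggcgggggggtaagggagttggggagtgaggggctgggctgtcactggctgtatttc
Zap70: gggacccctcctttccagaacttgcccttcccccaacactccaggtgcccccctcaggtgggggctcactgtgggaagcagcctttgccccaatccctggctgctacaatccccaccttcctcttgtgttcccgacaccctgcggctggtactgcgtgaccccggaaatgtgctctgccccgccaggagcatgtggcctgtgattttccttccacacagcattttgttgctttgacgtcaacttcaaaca
Txk and Tec each held GGAAGT once. Grap2 and Zap70 did not hold these letters, although the shorter core GGAA occurs in both windows. The window of Tec was richer in G and C (68.4%) than that of Txk (42.8%).

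Zap70, the kinase that binds the phosphorylated receptor chains, gave 67582 and 66533 RU on the naïve arrays, 148156 and 177001 RU on the TFH arrays, 65798 and 64768 RU on the Treg arrays and 104790.5 and 110821 RU on the TFR arrays. TFH arrays were highest, TFR arrays came next, and both naïve arrays lay slightly above both Treg arrays. Zap70 was 2.41-fold higher in TFH than in naïve cells (1.27 ± 0.11 (SE, adjusted p = 0.00108)) and rose in TFR cells by 0.72 ± 0.11 (SE, adjusted p = 0.00771), and a second probe gave 1.26 and 0.69. Fyn, a SRC family kinase, gave 2450.3 and 2621 RU on the naïve arrays, 5885 and 5535 RU on the TFH arrays, 3175 and 3301 RU on the Treg arrays and 4164 and 4417 RU on the TFR arrays. No arrays of different cell types overlapped, in the order naïve, Treg, TFR and TFH. Fyn rose by 1.17 ± 0.09 (SE, adjusted p = 0.000876) in TFH and by 0.41 ± 0.09 (SE, adjusted p = 0.0241) in TFR cells. Its relative Lck gave 176430.0 and 181918 RU on the naïve arrays, 224764 and 321921 RU on the TFH arrays, 157577 and 167678 RU on the Treg arrays and 148465 and 177464 RU on the TFR arrays. It was higher in TFH than in naïve cells (0.59 ± 0.14 (SE, adjusted p = 0.0252)) but gave -0.002 ± 0.14 in TFR against Treg cells, and 75th percentile scaling turned the first value to -0.02.

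Ptprc encodes CD45, the phosphatase that keeps LCK and FYN active, and Csk the kinase that inhibits them. Ptprc gave 10849 and 11594 RU on the naïve arrays, 11657 and 20414 RU on the TFH arrays, 9801 and 13510.3 RU on the Treg arrays and 5845 and 8031 RU on the TFR arrays. The TFH d25 array was the highest of all and the TFR arrays were the lowest. Ptprc fell in TFR against Treg cells (-0.75 ± 0.18 (SE, adjusted p = 0.0288)) and was not called in TFH cells (0.46 ± 0.18 (SE, adjusted p = 0.0917)). Csk ranged from 3055 to 6401 RU and rose in TFH cells (0.56 ± 0.16 (SE, adjusted p = 0.0434)).

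Among the 9 adaptors and exchange factors, 4 were called in TFH cells, 2 in each direction, which is near the background (44.4% against 46.5%). In TFR cells 7 were called, 6 of them lower (77.8% against 39.6%). Grap2 encodes GADS, which links LAT to SLP-76. It gave 8821 and 11154 RU on the naïve arrays, 3056 and 2172 RU on the TFH arrays, 7772 and 8673 RU on the Treg arrays and 2280.2 and 1883 RU on the TFR arrays. Every follicular array was below every other array. Grap2 was 3.85-fold lower in TFH cells (-1.94 ± 0.23 (SE, adjusted p = 0.00284)) and 3.96-fold lower in TFR cells (-1.99 ± 0.23 (SE, adjusted p = 0.00399)), with -1.98 and -1.92 at a second probe. Lcp2, which encodes SLP-76 itself, gave 2207 and 2590.3 RU on the naïve arrays, 5049.5 and 5079 RU on the TFH arrays, 3399.8 and 3570.1 RU on the Treg arrays and 5007 and 5428 RU on the TFR arrays. The brightest probe rose in TFH cells (1.08 ± 0.09 (SE, adjusted p = 0.00119)) and TFR cells (0.58 ± 0.09 (SE, adjusted p = 0.00968)), while a dimmer second probe gave -0.49 and -1.03, neither called (adjusted p = 0.302 and 0.073), so the direction of Lcp2 depends on the probe. Of its relatives, Blnk gave 827 and 462 RU on the naïve arrays, 571 and 1734 RU on the TFH arrays, 234 and 257 RU on the Treg arrays and 153 and 372 RU on the TFR arrays, which was not called, and Clnk read at the floor of 20 RU on all arrays.

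Lat, the membrane scaffold of the cascade, gave 57375 and 49642 RU on the naïve arrays, 62125 and 49175 RU on the TFH arrays, 50381 and 48621 RU on the Treg arrays and 34705 and 26381 RU on the TFR arrays. The TFR arrays were below all others, with -0.71 ± 0.11 (SE, adjusted p = 0.00989) against Treg and -0.87 ± 0.11 (SE, adjusted p = 0.00918) against TFH cells, and the naïve and TFH arrays overlapped (0.05 ± 0.11). Themis, an adaptor best known from thymic selection, gave 5767 and 7309 RU on the naïve arrays, 5476 and 10184 RU on the TFH arrays, 2387 and 3114 RU on the Treg arrays and 1138 and 1361 RU on the TFR arrays. The order was TFR below Treg below both Foxp3- types, whose arrays overlapped (0.20 ± 0.18 in TFH against naïve cells). Themis was 2.38-fold lower in Treg than in naïve cells (-1.25 ± 0.18 (SE, adjusted p = 0.0185)), 2.19-fold lower in TFR than in Treg cells (-1.13 ± 0.18 (SE, adjusted p = 0.00911)) and 6.001-fold lower in TFR than in TFH cells (-2.59 ± 0.18 (SE, adjusted p = 0.00169)). A dim second probe, above background on 6 arrays, gave -1.69 for the last of these.

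Fyb encodes ADAP, which couples the receptor to integrins. It gave 13174 and 13552 RU on the naïve arrays, 23289.9 and 21610.0 RU on the TFH arrays, 14114 and 18205 RU on the Treg arrays and 13276 and 13606 RU on the TFR arrays. It rose in TFH cells (0.75 ± 0.14 (SE, adjusted p = 0.0108)) and gave -0.25 ± 0.14 in TFR cells. The remaining adaptors moved less. Nck1 fell in both follicular types (-0.36 and -0.41), Skap1 and the exchange factor Vav1 fell in TFR cells (-0.39 and -0.33), and Sh2d2a was called only in Treg against naïve cells (0.50).

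**Figure D3:**
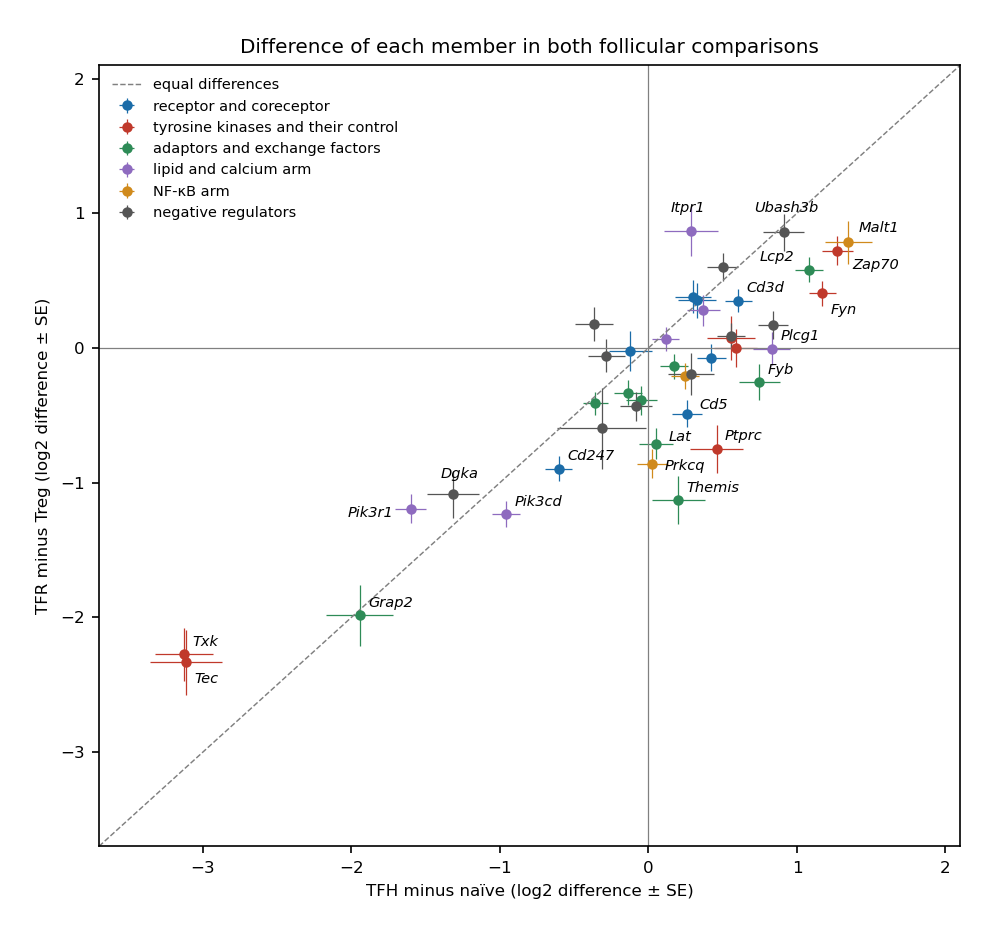
Log2 difference ± SE of each member in TFH minus naïve cells (x axis) and in TFR minus Treg cells (y axis), coloured by role, with a dashed line of equal differences. Txk, Tec, Grap2, Pik3r1, Pik3cd, Dgka and Cd247 lie low on both axes, whereas Themis, Prkcq and Ptprc are lower in TFR cells without being called in TFH cells.

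In the lipid and calcium arm, both listed subunits of phosphatidylinositol 3-kinase, Pik3r1 and Pik3cd, fell in both follicular types. In the wider pathway the catalytic subunit gene Pik3cg rose in TFH cells (0.45 ± 0.09 (SE, adjusted p = 0.0148)). The subunit gene Pik3r5 fell there, from 3672 and 3446 RU on the naïve arrays to 330 and 246 RU on the TFH arrays. Pik3r1, the gene of the regulatory subunit p85α, gave 1191 and 1601 RU on the naïve arrays, 415 and 498 RU on the TFH arrays, 1573 and 1731 RU on the Treg arrays and 685 and 759 RU on the TFR arrays. Pik3cd, the gene of the catalytic subunit p110δ, gave 20777 and 21956 RU on the naïve arrays, 11238 and 10747 RU on the TFH arrays, 18172 and 19984 RU on the Treg arrays and 8294 and 7898 RU on the TFR arrays. Follicular arrays of both genes lay below all naïve and Treg arrays. Pik3r1 fell, with -1.60 ± 0.11 (SE, adjusted p = 0.000607) in TFH and -1.19 ± 0.11 (SE, adjusted p = 0.00232) in TFR cells, and Pik3cd by -0.96 ± 0.10 (SE, adjusted p = 0.00184) and -1.24 ± 0.10 (SE, adjusted p = 0.00168). Of the 2 other probes of Pik3cd, 1 fell more (-1.43 and -1.61), while the other was not called (-0.25 and -0.57). Plcg1, phospholipase C-γ1, gave 10309.8 and 9533 RU on the naïve arrays, 17476 and 17807 RU on the TFH arrays, 9187 and 10669 RU on the Treg arrays and 8985 and 10815 RU on the TFR arrays. At the brightest of its 3 probes Plcg1 rose in TFH cells (0.83 ± 0.12 (SE, adjusted p = 0.00602)) and gave -0.01 ± 0.12 in TFR cells. A dimmer probe gave 0.14 and -0.97. The mean of all its probes gave 0.17 in TFH cells, which was not called (limma, adjusted p = 0.187). In TFR cells the lowest value under the 19 alternatives was -0.61, and 1 of them called it lower. The reading of Plcg1 therefore depends on the probe. Itpr1, a calcium release channel of the endoplasmic reticulum, rose in TFR cells by 0.87 ± 0.18 (SE, adjusted p = 0.0209). The calcium sensor gene Stim1 was not called in either follicular comparison (0.12 and 0.07) but was lower in both Foxp3+ types, at -0.67 ± 0.09 (SE, adjusted p = 0.0166) in Treg against naïve cells. Orai1, the channel it opens, rose slightly in TFH cells (0.37 ± 0.11 (SE, adjusted p = 0.0493)).

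In the NF-κB arm, protein kinase C-θ (Prkcq) signals to a complex that holds BCL10 and the protease MALT1. Malt1 gave 5875 and 6881 RU on the naïve arrays, 14624 and 17875 RU on the TFH arrays, 4366 and 4448 RU on the Treg arrays and 6086 and 9448 RU on the TFR arrays. TFH arrays were highest and Treg arrays lowest. Malt1 was 2.54-fold higher in TFH than in naïve cells (1.35 ± 0.16 (SE, adjusted p = 0.00303)) and rose in TFR cells by 0.78 ± 0.16 (SE, adjusted p = 0.0188), more at d25 than at d12 (0.48 at d12 and 1.09 at d25). Prkcq gave 27034 and 28946 RU on the naïve arrays, 28003 and 28902 RU on the TFH arrays, 31871 and 34161 RU on the Treg arrays and 19291 and 17167 RU on the TFR arrays. The TFR arrays were below all others, with -0.86 ± 0.10 (SE, adjusted p = 0.00474) against Treg cells and 0.02 ± 0.10 in TFH against naïve cells. Bcl10 was not called in any comparison.

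Related negative regulators differed from each other. Dgka and Dgkz encode diacylglycerol kinases, which remove the lipid messenger made by phospholipase C-γ1. Dgka gave 57791 and 55894 RU on the naïve arrays, 27416 and 18996 RU on the TFH arrays, 47444 and 51738 RU on the Treg arrays and 25479.9 and 21349 RU on the TFR arrays. It fell in TFH cells (-1.32 ± 0.17 (SE, adjusted p = 0.00416)) and TFR cells (-1.09 ± 0.17 (SE, adjusted p = 0.00968)), and no follicular array overlapped a naïve or Treg array. Dgkz rose instead, by 0.84 ± 0.10 (SE, adjusted p = 0.00341) in TFH cells, and gave 0.17 ± 0.10 in TFR cells. Of the UBASH3 pair, which encode phosphatase-like regulators of ZAP70, Ubash3b rose in TFH (0.91 ± 0.14 (SE, adjusted p = 0.00632)) and TFR cells (0.86 ± 0.14 (SE, adjusted p = 0.00979)), with 0.88 and 0.97 at a second probe. Ubash3a was not called (0.28 and -0.20), yet its dimmer probe fell in both (-1.16 and -1.11). Dok1 rose in both (0.50 and 0.60), whereas Dok2, which encodes a related docking protein, was called in neither (-0.28 and -0.06) but was higher in the Foxp3+ types, at 0.73 ± 0.12 (SE, adjusted p = 0.0289) in Treg against naïve cells. Of the ubiquitin ligases, Cblb fell in TFR cells (-0.43 ± 0.11 (SE, adjusted p = 0.0324)), and Cbl, the dimmest member that passed, was not called in any comparison. Sla, which encodes the receptor-degrading adaptor SLAP, rose in TFH cells (0.56 ± 0.09 (SE, adjusted p = 0.00878)) and was not called in TFR cells (0.09), and Sla2 was called in neither.

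In TFR against TFH cells nearly all calls were falls. Of 18 members called, 16 were lower in TFR cells: Themis, Ptprc, Malt1, Lat, Plcg1, Cd247, Fyb, Lck, Stim1, Cd4, Prkcq, Dgkz, Zap70, Pik3cd, Skap1 and Fyn. Differences of at least 1 were called for Themis, Ptprc (-1.17 ± 0.18 (SE, adjusted p = 0.0136)) and Malt1 (-1.09 ± 0.16 (SE, adjusted p = 0.0123)), or 7.14% of members against 10.8% of all genes. Within the shared slide at d12 these 3 differed by -2.27, -0.996 and -1.26. Dok2 (0.96 ± 0.12 (SE, adjusted p = 0.00854)) and Pik3r1 (0.67 ± 0.11 (SE, adjusted p = 0.0158)) were higher. The median difference of the members was -0.22 and that of all genes -0.02. These calls depended on the block and on single arrays. With slide in place of day as the block, 4 members (9.52%) were called against 8.65% of all genes. Without the TFR d12 array 1 (2.38%) was called against 6.01%, and without the TFR d25 array 3 (7.14%) against 6.97%. In these fits the members were near or below the background. Without the TFH d12 array 12 (28.6%) were called against 18.5%, and without the TFH d25 array, which carried the B cell markers, 8 (19.0%) against 13.3%. Themis alone was called under every one of the 19 alternatives.

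**Figure D4:**
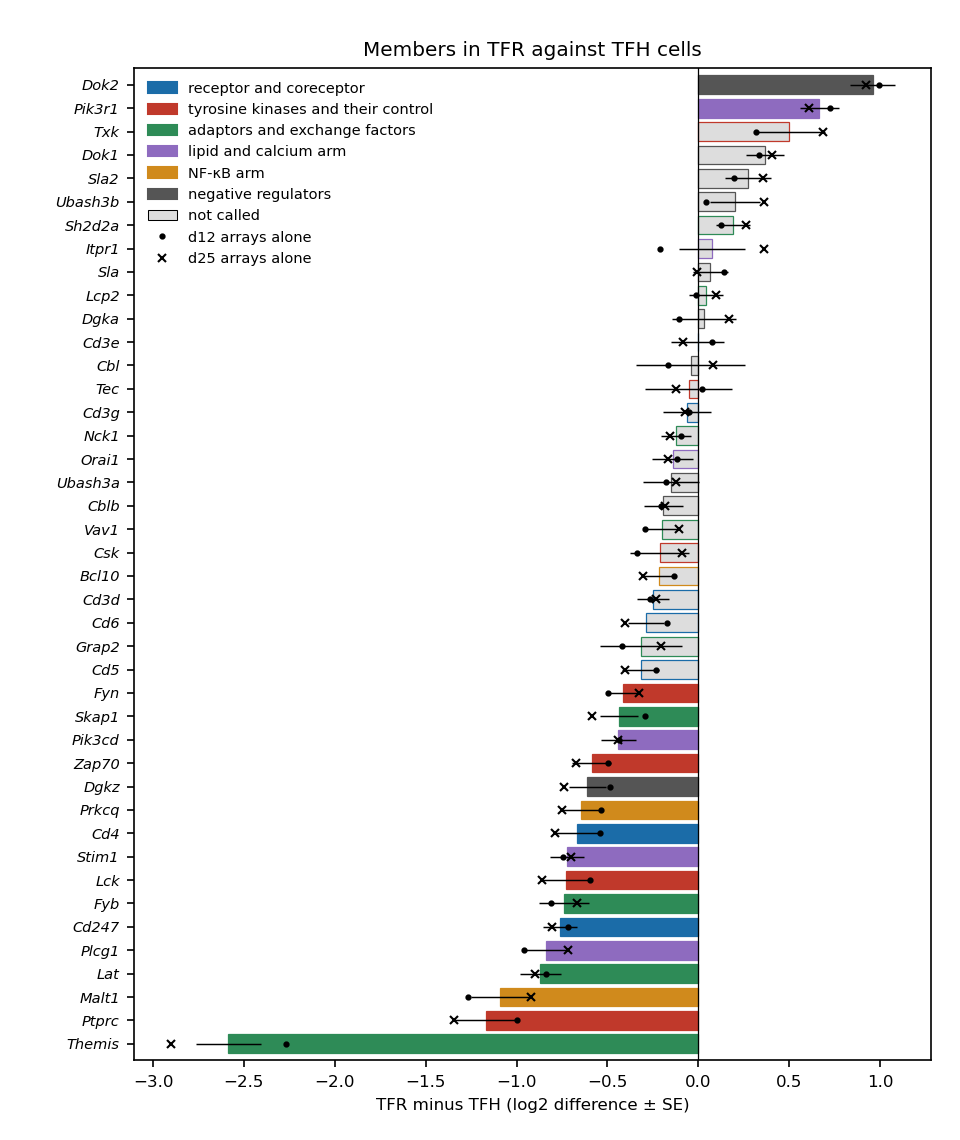
Log2 difference of the 42 members in TFR minus TFH cells (bars, ± SE), coloured by role where called and grey where not, with the differences of the d12 arrays (dots) and of the d25 arrays (crosses). Themis is lowest at -2.59, and Dok2 and Pik3r1 are the only members called higher.

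The change from Treg to TFR cells was set against the change from naïve to TFH cells in the same fit. It differed for 5 members, or 11.9% against a background of 8.51% (4.45% lower), and in all 5 the TFR change was the lower one: Themis (-1.33 ± 0.25 (SE, adjusted p = 0.0431)), Fyb (-1.002 ± 0.19 (SE, adjusted p = 0.0448)), Prkcq (-0.88 ± 0.15 (SE, adjusted p = 0.0332)), Fyn (-0.77 ± 0.13 (SE, adjusted p = 0.0332)) and Cd5 (-0.74 ± 0.14 (SE, adjusted p = 0.0465)). For Fyn both changes were rises, for Themis and Prkcq the fall in TFR cells had no called counterpart in TFH cells at the brightest probe, for Cd5 likewise, and for Fyb the rise in TFH cells had none in TFR cells. A dim second probe of Themis gave a difference of only -0.22 (adjusted p = 0.842). Of the 2 dimmer probes of Prkcq, the one above background on 7 arrays fell in TFH (-1.44, adjusted p = 0.0451) and TFR cells (-2.17, adjusted p = 0.0168) and gave -0.73 (adjusted p = 0.517) for the difference of the changes. No member kept this call under every alternative. All 5 lost it without any 1 of the naïve, Treg or TFR arrays, but in those fits fewer of all genes were called too.

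Treg against naïve cells gave 1 member with a difference of at least 1 (background 5.94%), Themis, beside Cd4, Stim1, Cd247 (-0.47 ± 0.09 (SE, adjusted p = 0.0441)), Dok2, Lcp2 (0.54 ± 0.09 (SE, adjusted p = 0.0306)), Sla (0.53 ± 0.09 (SE, adjusted p = 0.0329)) and Sh2d2a. These calls were all lost without any 1 of the naïve, Treg or TFR arrays, but in those fits fewer of all genes were called too. Between d25 and d12, limma called 0 members, and 0.0698% of all genes were called. At an unadjusted p below 0.05 there were 16 of 42 members (38.1%) and 28.8% of all genes. Day and slide cannot be told apart in this comparison. The differences ran from -0.42 (Csk) to 0.47 (Themis).

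The other genes of the pathway, 72 listed and 71 tested, gave 44 calls in TFH cells (62%, 29 higher and 15 lower) and 34 in TFR cells (47.9%, 11 higher and 23 lower), beside the same backgrounds of 46.5% and 39.6%. TFR against TFH cells gave 25 calls (35.2%, background 22.1%), 20 of them lower. The largest in TFH cells were Rnf128, the ubiquitin ligase GRAIL, at 4.97 ± 0.41 (SE, adjusted p = 0.00102), the phosphatase gene Ptpn11 at 3.53 ± 0.13 (SE, adjusted p = 0.000174), the phosphatidylinositol 3-kinase subunit gene Pik3r5 at -3.64 ± 0.14 (SE, adjusted p = 0.000188) and the calcineurin subunit gene Ppp3ca at -3.38 ± 0.23 (SE, adjusted p = 0.000607). All 4 moved the same way in TFR cells, by 2.14, 1.33, -2.40 and -1.39. The receptor-associated adaptor Trat1 and the inhibitory adaptor Sit1 fell in both follicular types (Trat1 -2.28 and -1.17, Sit1 -1.39 and -1.35).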

How the data were processed

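Per the labels, RNA of sorted CD4 T cells was amplified in 1 round, labelled with 1 dye and hybridised to Agilent arrays, and the submitters' processing notes name Agilent Feature Extraction 10.7.3.1. The authors deposited spot intensities (background-corrected signals, 4 spots per probe) and a table of normalized intensities. The steps of the study's methods were rerun from the spots: spots flagged by the software, outside 1.42 interquartile ranges or with a pixel coefficient of variation above 0.5 were left out, the rest averaged geometrically, quantile normalized, scaled to a 75th percentile of 1500 and floored at 20. Between 86.5 and 89.2% of spots remained, 18261 to 19867 probes per array were well above background, no probe was saturated, and the values correlated with the authors' table at r = 0.999 across probes on each array. The number of arrays limits the precision.

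A gene was read from its brightest probe by mean log2 value and kept where that probe was above background on most spots of both arrays of a cell type. The limma package (3.58.1, R 4.3.3) fitted cell type and day to all 8 arrays, with 3 residual degrees of freedom and 1.89 from the variance prior, and Benjamini-Hochberg adjustment ran over 15764 genes. The day is the replicate number, so this term is the replicate block. The script was tested on simulated data. Members called with a log2 difference of at least 1, members called in the difference of the changes, and the receptor and proximal core were named with all array values. The members and lists were chosen with earlier results of these data known. Promoters came from RefSeq (GRCm38.p6, 33 of 43 members). Alternatives varied normalization, background correction, starting table, spot exclusion, filter, probe choice, block, variance estimate, threshold and arrays. Some genes of the pathway are not reported here.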

Additional observations from a re-analysis of the deposited data

Results flagged for a closer look

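Chosen because a test of the difference between the TFH and the TFR change passed the threshold, 5 members are listed with both changes (limma, log2). Themis differed by -1.33 ± 0.25 (adjusted p = 0.0431), with 0.20 in TFH and -1.13 in TFR cells. Fyb differed by -1.002 ± 0.19 (adjusted p = 0.0448), with 0.75 and -0.25. Prkcq differed by -0.88 ± 0.15 (adjusted p = 0.0332), with 0.02 and -0.86. Fyn differed by -0.77 ± 0.13 (adjusted p = 0.0332), with 1.17 and 0.41. Cd5 differed by -0.74 ± 0.14 (adjusted p = 0.0465), with 0.26 and -0.49. The TFR change was the lower one on both days for all 5, and 0 of the 5 kept the call under all 19 alternatives. At dimmer probes above background on 6 and 7 arrays the difference was -0.22 for Themis (adjusted p = 0.842) and -0.73 for Prkcq (adjusted p = 0.517).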

How the results depend on the processing

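Of 78 called differences of the members, 20 kept their call under all 19 alternatives other than a minimum difference: 12 in TFH against naïve cells (Cd247, Fyn, Zap70, Txk, Tec, Grap2, Pik3cd, Pik3r1, Malt1, Ubash3b, Dgka and Dgkz), 7 in TFR against Treg cells (Cd247, Txk, Tec, Grap2, Pik3cd, Pik3r1 and Prkcq) and Themis in TFR against TFH cells. Counts of called members are given in the order TFH against naïve, TFR against Treg, TFR against TFH, Treg against naïve and the difference of the changes. Leaving out 1 array gave 15 to 21, 7 to 25, 1 to 14, 0 to 8 and 0 to 3. A minimum difference of 1 gave 9, 7, 3, 1 and 2, with backgrounds of 20.8, 16.1, 10.8 and 5.94% for the first 4. Without the filter on dim probes, where 29924 genes were tested, the counts were 20, 15, 5, 1 and 0. These were 46.5, 34.9, 11.6, 2.33 and 0% of members, against 17.8, 12.9, 5.53, 2.32 and 1.44% of all genes. Without moderation they were 20, 18, 5, 0 and 0, or 47.6, 42.9, 11.9, 0 and 0% of members. Of all genes 35.5, 26.9, 11, 3.34 and 0.99% were called without moderation. The members in TFR against TFH cells were then near the background. Slide as the block gave 21, 19, 4, 0 and 0, or 50, 45.2, 9.52, 0 and 0% of members, against 41.5, 32.9, 8.65, 3.33 and 4.48% of all genes. The fit without the replicate block of day gave 18, 16, 12, 1 and 2, or 42.9, 38.1, 28.6, 2.38 and 4.76%, against 35, 26.9, 14, 6.37 and 5.18%. The mean of all probes gave 4 in Treg against naïve cells (9.52%, background 9.55%) and 3 for the difference of the changes (7.14%, background 7.59%). For the latter normexp gave 9 (21.4%, background 10.6%) and the values normalized by the authors 3 (7.14%, background 8.2%). Genes above background on all arrays gave 8 there (19%, background 8.4%) and an intensity trend 11 (26.2%, background 11.6%). Between the days normexp and the all-array filter gave 2 (4.76%, backgrounds 5.39 and 5.96%) and the trend 3 (7.14%, background 6.93%). No analysis of d25 against d12 was possible with slide as the block or without the day term. All other counts were within 1.5 times those reported.

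Called differences that changed sign were Cd3d (-0.18) and Lck (-0.023) in TFH against naïve cells under 75th percentile scaling and Lcp2 (-0.22) in TFR against Treg cells with the mean of all probes. The median of all genes in TFH against naïve cells was -0.13 under that scaling and -0.07 as reported. Uncalled differences near 0 also changed sign: under 75th percentile scaling in TFH against naïve cells Cd3g (-0.15), Cd5 (-0.026), Lat (-0.092) and Prkcq (-0.040), and in TFR against TFH cells Cd3e (0.059), Cd3g (0.057) and Dgka (-0.016). With the mean of all probes these were Themis (-0.19) and Prkcq (-0.49) in TFH against naïve cells and Lcp2 in TFR against TFH cells (-0.45). Without spot exclusion Plcg1 gave 0.019 in TFR against Treg cells, and with normexp Plcg1 gave 0.030 and Cd3e 0.011. Cd3e in TFR against TFH cells gave 0.012 in the authors' table and 0.020 with slide as the block, where Dgka gave -0.080. At d12 alone Themis in TFH against naïve cells was -0.075, and in TFR against TFH cells Cd3e was 0.076, Tec 0.018, Lcp2 -0.012 and Dgka -0.11. At d25 alone Cd3e was 0.12, Lat -0.014 and Prkcq -0.0022 in TFH against naïve cells, and Cd3e 0.11, Lck 0.082 and Plcg1 0.020 in TFR against Treg cells. Leaving out 1 array gave ranges that crossed 0 for Cd3e (-0.30 to 0.057), Lat (-0.0088 to 0.11), Themis (-0.082 to 0.49) and Prkcq (-0.029 to 0.077) in TFH against naïve cells, for Cd3e (-0.13 to 0.082), Lck (-0.094 to 0.090) and Plcg1 (-0.12 to 0.11) in TFR against Treg cells, and for Cd3e (-0.18 to 0.17), Cd3g (-0.18 to 0.054), Tec (-0.34 to 0.23), Lcp2 (-0.024 to 0.11) and Dgka (-0.20 to 0.27) in TFR against TFH cells. The cause of these changes was not tested. The 42 members lay well above background on every array, so low signal limits Pag1 alone.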

Other observations

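Of the branch from the receptor to Ras and the MAP kinases, Rasgrp1, the exchange factor that diacylglycerol recruits, fell in TFH against naïve CD4 T cells (-1.25 ± 0.14 (SE, adjusted p = 0.0028)), as did Nras (-0.94) and Braf (-0.64), whereas Dusp6, a MAP kinase phosphatase, rose (1.25). In TFR against Treg cells Rasgrp1 (-0.87), Nras (-0.73) and Braf (-0.60) fell, while Dusp6 (0.16) was not called.

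Nr4a1, an early response gene of the TCR, rose in TFH against naïve cells (0.78 ± 0.10 (SE, adjusted p = 0.00414)), in TFR against Treg cells (0.36 ± 0.10 (SE, adjusted p = 0.0465)) and in Treg against naïve cells (0.91 ± 0.10 (SE, adjusted p = 0.0103)). Rcan1, a target of calcineurin and NFAT, rose in TFH (1.14) and TFR cells (0.96), and Nfatc2 rose in TFH cells (1.11) and was not called in TFR cells (0.25).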
